A study of Homo sapiens with 6 samples.

Results

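The genes described here are those of somatostatin (SST), its relative cortistatin (CORT) and the somatostatin receptors (SSTR1 to SSTR5), measured by RNA sequencing in the human neuroblastoma line SK-N-BE(2). Rows were matched by Ensembl ID to the 7 gene symbols in GENCODE 29. Of the 7 genes, 6 have a row among the 32434 gene IDs of the table, and the expression of SSTR4 was not analysed here. The family was singled out because SST and SSTR1 were higher in the cells with the MYT1 hairpin. Its values in that comparison are therefore given as a description, without a test.

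The study compared 3 libraries of cells carrying a control short hairpin RNA (shNC) with 3 libraries of cells carrying a hairpin against MYT1 (shMYT1). MYT1 encodes a zinc-finger protein that regulates transcription in neuronal precursors. Both groups were grown in RPMI 1640 with fetal bovine serum, and the protocol describes 24 h of lentiviral infection followed by 48 h in puromycin. The genotype field calls the shMYT1 cells a knockout, whereas the protocol describes a stable knockdown. How many hairpins were used, and their sequences, is not stated. Nothing in the labels ties the replicates to separate cultures, and p-values reflect only how much these libraries vary. MYT1 itself went from 5.34 ± 0.34 FPKM (SD, n = 3) in shNC to 4.23 ± 0.11 FPKM (SD, n = 3) in shMYT1, a difference of -20.8% (limma adjusted p = 0.0102). FPKM are fragments per kilobase of exon, scaled for library depth, so levels of different genes can be compared on this scale.

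Somatostatin is a small secreted peptide, cut from a longer precursor, that quiets hormone release and neuronal firing. Cortistatin is a related peptide that binds the same receptors. The receptors are G protein-coupled receptors that act mainly through inhibitory Gi/o proteins: they lower cyclic AMP, open inwardly rectifying potassium channels and close voltage-gated calcium channels. Neuroblastoma arises from the sympathetic lineage, where somatostatin is a known neuropeptide, and SSTR2 is the receptor most used for imaging of neuroendocrine tumours with labelled somatostatin analogues.

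The SST promoter is the classical example of a gene switched by cyclic AMP, through a palindromic cyclic AMP response element (CRE). Sequences of the 250 bases before the annotated start of SST, SSTR1 and SSTR2 are shown because these are the 3 genes of the family with a mean of at least 1 FPKM. They are from RefSeq (GRCh38.p14), read 5′ to 3′ on the strand of the gene. They lie at chr3:187670395-187670644 (minus strand) for SST, chr14:38207654-38207903 (plus strand) for SSTR1 and chr17:73164760-73165009 (plus strand) for SSTR2. Capitals mark the full CRE in SST, the 5-letter MYT1 core AAGTT in SSTR1 and the short CRE motif TGACG in SSTR2.
SST: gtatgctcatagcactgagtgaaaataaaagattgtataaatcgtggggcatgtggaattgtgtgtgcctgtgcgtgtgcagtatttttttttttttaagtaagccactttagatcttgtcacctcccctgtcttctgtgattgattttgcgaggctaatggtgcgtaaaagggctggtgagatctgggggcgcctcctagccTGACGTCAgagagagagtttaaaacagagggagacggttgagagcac
SSTR1: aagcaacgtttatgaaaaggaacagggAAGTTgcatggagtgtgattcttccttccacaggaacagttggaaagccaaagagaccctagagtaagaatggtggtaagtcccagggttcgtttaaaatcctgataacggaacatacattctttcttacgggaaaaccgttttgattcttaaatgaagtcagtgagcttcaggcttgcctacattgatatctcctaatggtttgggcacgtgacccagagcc
SSTR2: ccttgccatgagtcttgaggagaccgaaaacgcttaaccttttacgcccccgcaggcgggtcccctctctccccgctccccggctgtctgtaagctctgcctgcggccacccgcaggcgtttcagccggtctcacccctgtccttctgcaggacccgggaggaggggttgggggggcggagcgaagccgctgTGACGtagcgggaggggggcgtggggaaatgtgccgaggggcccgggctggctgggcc

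The 8-letter CRE, TGACGTCA, begins at position -47 of SST, counting the first transcribed base as 0. It was searched in windows of 300 bases that also hold the first 50 transcribed bases. It occurs in 1.85% of the 35116 such windows of RefSeq genes and in none of the windows of CORT or the 5 receptors. The short motif TGACG, which the full CRE contains on both strands, occurs in 24.6% of the windows and, in the family, also at position -58 of SSTR2, 20 of SSTR5 and, on the opposite strand, -1 of CORT. AAGTT, the core of MYT1 binding sites, occurs on either strand in 34.0% of the windows. In the family it lies at position -223 of SSTR1 and, on the opposite strand, at -142 of CORT. AGGTCA, a hexamer bound by retinoid receptors, occurs in 13.8% of the windows and in no window of the family. These matches describe letters in the windows and say nothing of binding in these cells.

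SST, the gene of the ligand, was measured at 6.33, 6.78 and 7.64 FPKM in shNC replicates 1, 2 and 3 and at 18.5, 19.3 and 19.7 FPKM in shMYT1 replicates 1, 2 and 3. Every shMYT1 library lay above every shNC library, and the gap between the groups was far wider than the spread within them. The ratio of the means was 2.77. On the log2(FPKM + 1) scale the difference was 1.35 (SE 0.06), the ninth largest rise among the 14106 genes tested. SST (ENSG00000157005, chromosome 3, 187668906 to 187670399, minus strand, hg38) has only 618 exon bases, so these levels rest on 84 to 99 fragments per shNC library and 211 to 228 per shMYT1 library. Among the tested genes, 54.1% had a lower shNC mean than SST and 82.6% a lower shMYT1 mean.

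SSTR1 differed more than its ligand. This receptor gene (ENSG00000139874, chromosome 14, 38207999 to 38213067, plus strand, hg38) was at 0.466, 0.399 and 0.322 FPKM in shNC replicates 1, 2 and 3. In shMYT1 replicates 1, 2 and 3 it was at 3.92, 4.08 and 3.49 FPKM. The lowest shMYT1 library was thus above the highest shNC library several times over. The ratio of the means, 0.396 ± 0.07 and 3.83 ± 0.31 FPKM (SD, n = 3 each), was 9.67. The difference of 1.79 (SE 0.08) on the log2(FPKM + 1) scale was the largest rise of all tested genes. By the ratio of means SSTR1 ranked 2 among them, behind the microRNA gene MIR1185-1, and 0.985% of tested genes had a ratio of at least 2. Genes under the minimum mean of 1 FPKM are not in this ranking, and some had larger ratios. Of those named below, RALYL had a ratio of 18.2, THSD7B of 10.7 and DBX1 of 102. Because the added 1 FPKM weighs on a gene this low in shNC, the log2 difference depended on it and was 2.99 with 0.1 FPKM added and 3.27 on recovered fragments. SSTR1 reached the minimum mean of 1 FPKM only through the shMYT1 libraries. Its shNC level rests on 29 to 43 fragments per library, well above the 3 fragments (0.0325 to 0.0395 FPKM) taken as the lowest level to be told from 0.

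SSTR2, the receptor gene with the highest level in both groups, was at 5.01, 5.02 and 4.49 FPKM in shNC replicates 1, 2 and 3 and at 5.61, 5.63 and 5.51 FPKM in shMYT1 replicates 1, 2 and 3. The groups did not overlap, but they lay close together. The ratio of the means was 1.15 and the difference 0.17 (SE 0.05) on the log2(FPKM + 1) scale. SSTR2 (ENSG00000180616, chromosome 17, 73165012 to 73176633, plus strand, hg38) had 739 to 879 fragments per library, the deepest coverage in the family. It shares exon bases with AC097641.1 on the same strand, so some of these fragments could belong to that gene.

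The 3 remaining genes stood near the limit of detection. SSTR3 (ENSG00000278195, chromosome 22, 37204238 to 37212322, minus strand, hg38) was at 0.0309, 0.105 and 0.0316 FPKM in shNC and at 0.144, 0.125 and 0.112 FPKM in shMYT1, replicates 1, 2 and 3 each. The lowest shMYT1 library was barely above the highest shNC library, and the values rest on 3, 10 and 3 fragments against 13, 10 and 9. SSTR5 (ENSG00000162009, chromosome 16, 1078781 to 1080142, plus strand, hg38) was listed at 0 in every shNC library and had 1 fragment each in shMYT1 replicates 1 and 2 and 0 in replicate 3. Both groups were under 3 fragments per library, which would be 0.103 to 0.125 FPKM for this gene.

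CORT, the second ligand gene (ENSG00000241563, chromosome 1, 10449719 to 10451902, plus strand, hg38), was at 0.206, 0.337 and 0.169 FPKM in shNC and at 0.177, 0 and 0.299 FPKM in shMYT1, replicates 1, 2 and 3 each. The groups overlapped, with 4 to 8 fragments per shNC library and 0 to 6 per shMYT1 library. The log2 difference of -0.10 (SE 0.11) was close to 0 (0.0016) without shMYT1 replicate 2, the library with 0 fragments. CORT shares exon bases with the readthrough gene CENPS-CORT on the same strand, and fragments there can belong to either. The readthrough row itself held 0.0282 ± 0.01 FPKM in shNC and 0.0400 ± 0.01 FPKM in shMYT1 (SD, n = 3 each).

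**Figure D1:**
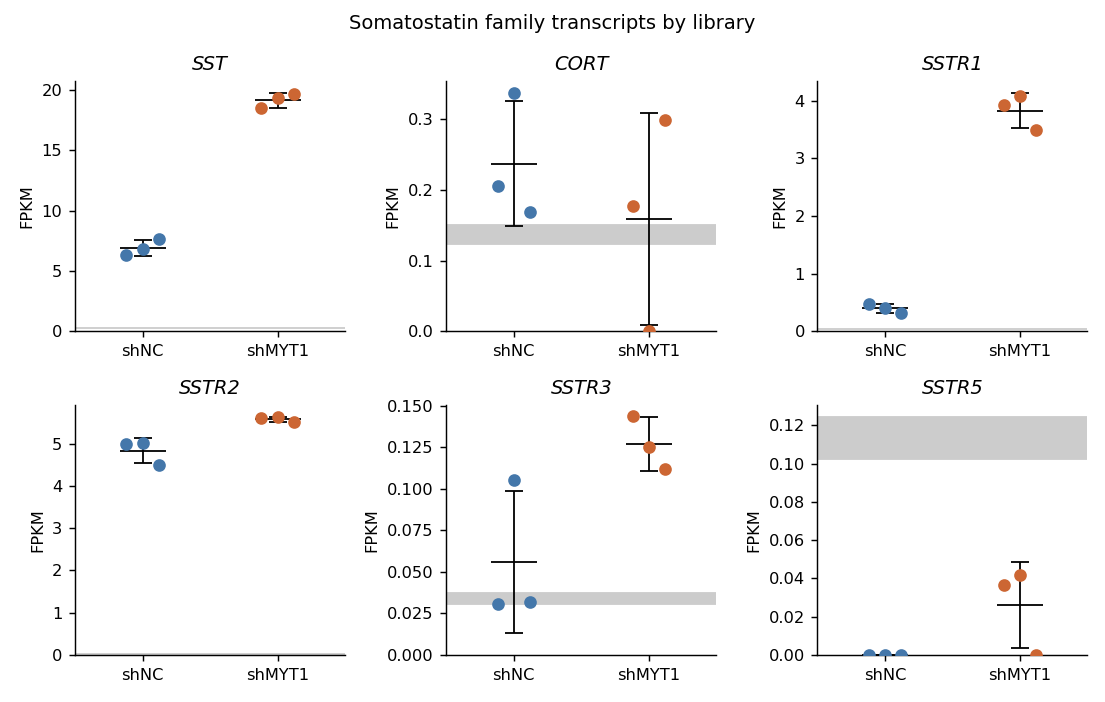
FPKM of the 6 measured genes in each library (points), with the mean (long bar) and SD (capped line) of 3 libraries per group; each panel has its own axis from 0. The grey band is the level of 3 fragments in the different libraries. SST and SSTR1 sit apart between the groups, SSTR2 differs by 15.4% of the shNC mean, and CORT, SSTR3 and SSTR5 lie near or under the band.

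All 3 tested members were past adjusted p under 0.05 in the limma fit over all genes, as were 24.2% of tested genes. All 3 also had groups that did not overlap, as had 42.3% of tested genes. Since the family was chosen on this comparison, nothing is read from these counts. SSTR2 was not past the threshold in 9 of 15 alternative settings, among them the fit with no minimum level and each omission of a library.

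The order of levels was the same in both groups: SST, SSTR2, SSTR1, CORT, SSTR3, SSTR5. Neighbours in that order that overlapped between libraries were SSTR1 and CORT in shNC and CORT and SSTR3 in shMYT1. What differed was the spacing. In shNC the SSTR2 mean was 12.2 times the SSTR1 mean, and in shMYT1 it was 1.46 times. SST stood at 1.43 times SSTR2 in shNC and at 3.43 times SSTR2 in shMYT1.

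The receptor transcripts added up to 5.50, 5.52 and 4.84 FPKM in shNC replicates 1, 2 and 3 and to 9.71, 9.87 and 9.10 FPKM in shMYT1 replicates 1, 2 and 3. The sum was thus higher in each shMYT1 library, with a ratio of means of 1.81. SSTR1 made up 80.3% of the difference between the group means of the sum. Its share of the receptor transcripts was 8.47, 7.23 and 6.65% in the shNC libraries and 40.4, 41.3 and 38.3% in the shMYT1 libraries. SSTR2 held 91.5 ± 1.03% of them in shNC and 58.4 ± 1.84% in shMYT1 (SD, n = 3 each). SSTR3 and SSTR5 together stayed a minor part, with SSTR3 at 1.04 ± 0.75% and 1.33 ± 0.14% (SD, n = 3 each). As bulk RNA, the libraries cannot tell more SSTR1 per cell from more cells that express it.

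**Figure D2:**
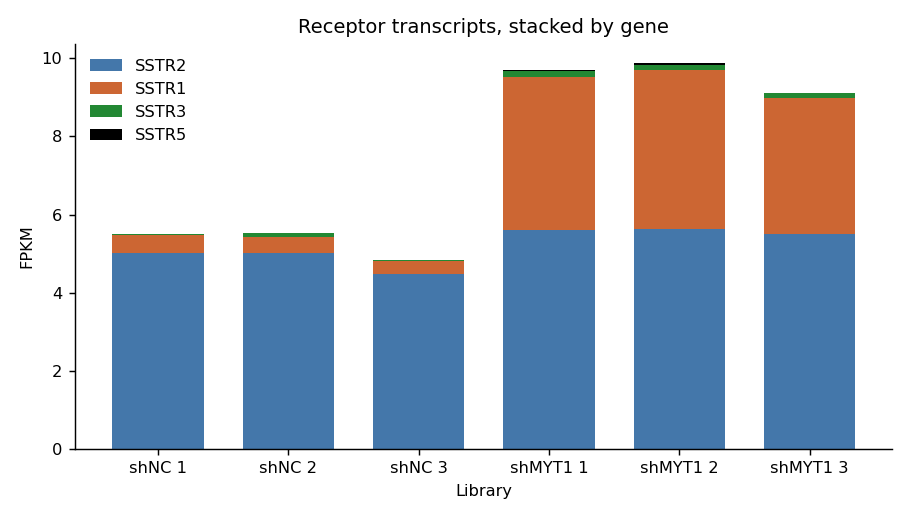
FPKM of the receptor genes stacked for each of the 6 libraries. The SSTR2 segment is of similar height in all 6 libraries, while the SSTR1 segment goes from 0.322 to 0.466 FPKM in shNC to 3.49 to 4.08 FPKM in shMYT1.

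The library patterns of SST and SSTR1 were compared with those of other protein-coding genes by the distance between values of log2((FPKM + 0.1)/mean of the 6 libraries). Among 7472 genes with at least 5 FPKM in the higher group, the nearest to SST was SCGN, which encodes the calcium-binding protein secretagogin (11.5 and 30.7 FPKM, distance 0.182). CRABP2 (distance 0.218), BCHE (0.222), CACNA1H (0.269) and IGF2 (0.393) followed. CRABP2 encodes a retinoic acid-binding protein, BCHE butyrylcholinesterase, CACNA1H a T-type calcium channel and IGF2 an insulin-like growth factor. CACNA1H and IGF2 share exon bases with genes on the opposite strand. IGF2 also shares them with AC132217.1, INS-IGF2 and another IGF2 gene ID on the same strand. These values are a description over 6 libraries that share the 2 groups.

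For SSTR1 the comparison covered 11355 genes with at least 1 FPKM in the higher group. RALYL came first (0.0555 and 1.01 FPKM, distance 0.407), then PARM1 (0.272 and 2.43 FPKM, 0.457) and THSD7B (0.154 and 1.65 FPKM, 0.468). DBX1 (distance 1.01), a homeobox gene of developing neurons, and SLC18A1 (distance 1.42), the gene of a vesicular monoamine transporter, were next. Like SSTR1, all 5 were low in shNC, the highest being SLC18A1 at 0.592 FPKM. SST itself lay at a distance of 2.30 from SSTR1, place 24 in this ranking. In the ranking around SST, the same distance would put SSTR1 at place 7227 of 7472, although SSTR1 is below its minimum of 5 FPKM. This distance weighs the size of a rise as well as its course over the libraries. Both genes were higher in every shMYT1 library, with ratios of means of 2.77 for SST and 9.67 for SSTR1. The place of SSTR1 thus does not mean that it moved in another direction than SST.

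**Figure D3:**
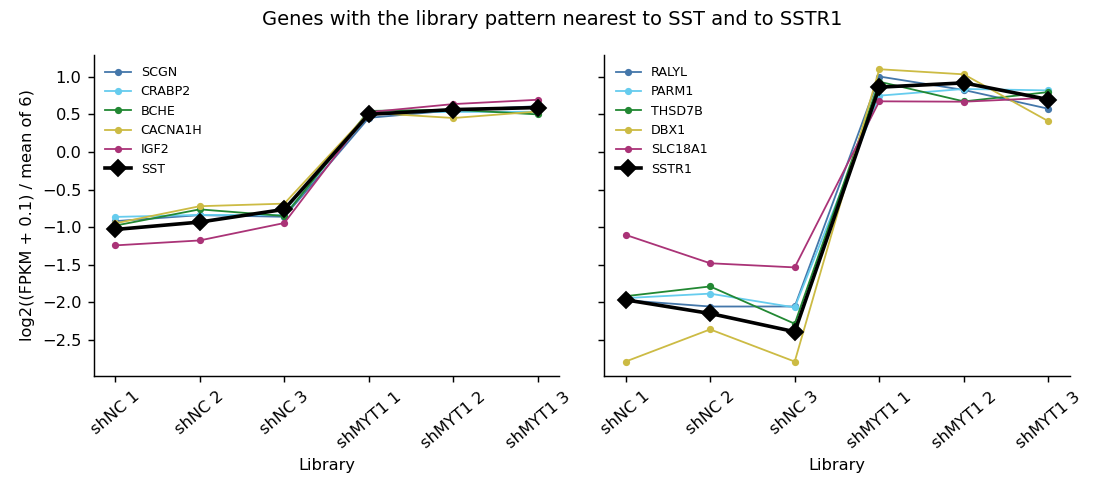
Values of log2((FPKM + 0.1)/mean of 6) in each library for SST (left) and SSTR1 (right), each in black, with the 5 nearest protein-coding genes in colour; lines only join the points of a gene. The 5 genes beside SST run close to it, with distances of 0.182 to 0.393, and those beside SSTR1 spread more widely in shNC, with distances of 0.407 to 1.42.

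The genes next to SST and SSTR1 on their chromosomes differed less between the groups. SST and SSTR1 were chosen because they rose, so almost any gene would lie below them. Nothing is read from that contrast. On either side of SST, the 3 nearest tested genes were RPL39L, ST6GAL1 and RPS20P14, and BCL6, LPP and P3H2. BCL6, a transcriptional repressor gene 51.0 kb away, had 2.11 ± 0.12 FPKM in shNC and 2.01 ± 0.25 FPKM in shMYT1 (SD, n = 3 each; log2 difference -0.05, limma adjusted p = 0.694). RPL39L, 488 kb away on the other side, fell by 0.19 on the log2 scale (limma adjusted p = 0.0146). ST6GAL1, a sialyltransferase gene 590 kb away, rose by 0.17 (limma adjusted p = 0.0253). The ST6GAL1 call was lost in 6 of 15 alternative settings and the RPL39L call in 2.

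The nearest tested genes to SSTR1 were MBIP, BRMS1L and RALGAPA1 on one side and SEC23A, GEMIN2 and TRAPPC6B on the other. None of the 6 passed the threshold (limma adjusted p 0.0551 for RALGAPA1 to 0.602 for MBIP), with log2 differences from -0.15 to 0.05. At an unadjusted p under 0.05 there was 1, RALGAPA1, which also passed after adjustment with voom on recovered fragments (5 of the 6 tested). SEC23A, which encodes a coat protein of transport vesicles 819 kb from SSTR1, had 11.2 and 10.5 FPKM. The closest on the other side, MBIP, lay 1887 kb away, so the tested neighbours of SSTR1 are distant.

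**Figure D4:**
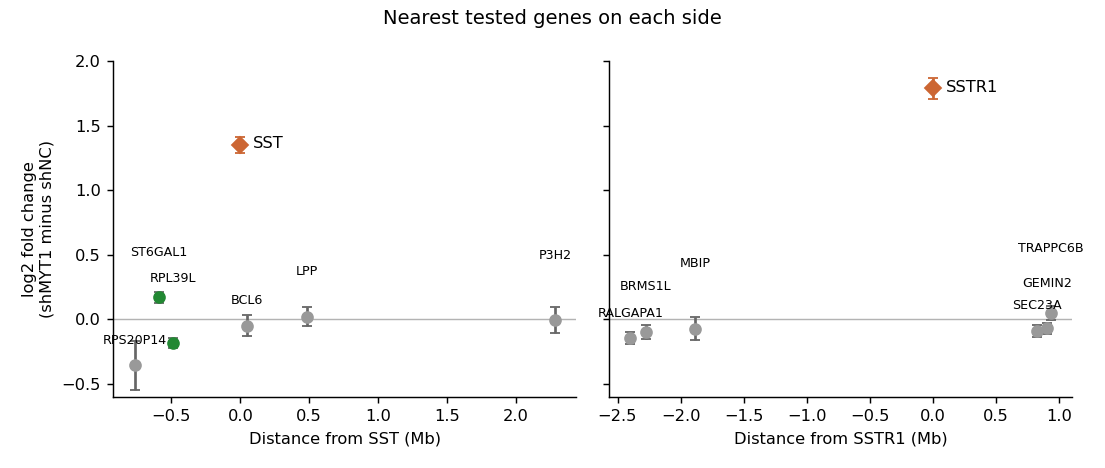
Log2 difference between shMYT1 and shNC (points, with standard errors) of the 3 nearest tested genes on each side of SST (left) and SSTR1 (right) against their distance; orange diamonds are SST and SSTR1, green points passed adjusted p under 0.05 and grey points did not. SST (1.35) and SSTR1 (1.79), chosen because they rose, stand above all 12 neighbours, which lie between -0.36 and 0.17.

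Genes around somatostatin signalling were described in 11 lists of 190 genes, of which 177 have a row and 121 were tested. In these lists 24 genes rose, 21 fell and 76 did not pass, so 37.2% passed against 24.2% of all tested genes, of which 11.9% rose and 12.3% fell. The median log2 difference was 0.02, against -0.0048 over all tested genes. Passing genes thus went both ways. The number passing was 45 and was lower whichever library was left out, as it was over all genes. Without shNC replicate 1, 14 rose and 15 fell, and over all genes the number passing went from 3420 to 2195 (15.6%). Without shNC replicate 2, 13 rose and 15 fell (2038 of all genes, 14.4%). Without shNC replicate 3, 25 rose and 17 fell (3048 of all genes, 21.6%). Without shMYT1 replicate 1, 15 rose and 15 fell (2196 of all genes, 15.6%). Without shMYT1 replicate 2, 18 rose and 17 fell (2632 of all genes, 18.7%). Without shMYT1 replicate 3, 16 rose and 18 fell (2298 of all genes, 16.3%). No excess of rises over falls can be read from these lists.

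Of the 33 genes the naming rule selects from the lists, 23 passed in every setting run. The calls of the 10 others, given below as rises or falls, were lost in several of the alternative settings. The losses were 10 of 14 settings for CACNA1C, 9 of 15 for CPD, 9 of 14 for MCHR1, 8 of 13 for ADCY1, 8 of 15 for CPE and 8 of 14 for GNG3. They were 7 of 14 for KCNJ9, 6 of 14 for CRTC3, 5 of 15 for OPRD1 and 4 of 15 for PRKACB. CACNA1C, CPD, CPE and MCHR1 lost the call whichever of the 6 libraries was left out. With replicate number as a block, the calls of ADCY1, CACNA1C, CPD, GNG3, KCNJ9 and MCHR1 were lost.

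Of 11 tested factors that act on the SST promoter, 1 rose, 1 fell and 9 did not pass (median 0.03). CREB1, which binds the CRE, was at 9.43 and 9.41 FPKM in shNC and shMYT1 (limma adjusted p = 0.952). ISL1, a homeobox factor of endocrine and sympathetic cells, rose from 32.3 ± 0.60 to 37.3 ± 0.90 FPKM (SD, n = 3 in both groups; adjusted p = 0.00422 by limma). CRTC3, a CREB coactivator gene, fell from 4.42 to 3.78 FPKM. PAX6 was at 0.0045 and 0.0062 FPKM, and PDX1 was not analysed here.

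Of 11 tested markers of somatostatin neurons and pancreatic delta cells, 1 rose and 3 fell (median -0.01). DLX1 and DLX2, homeobox genes of the interneuron lineage, fell by 0.46 and 0.44 on the log2 scale (limma adjusted p = 0.00400 and 0.00965). DLX5 (1.19 and 1.35 FPKM) and DLX6 (1.82 and 1.79 FPKM), of the same gene family, did not pass (limma adjusted p = 0.547 and 0.934). NPY, a neuropeptide often made beside somatostatin, fell from 81.2 to 68.1 FPKM. RELN, the reelin gene, rose from 10.1 to 14.0 FPKM. NPY was thus far more abundant than SST in both groups and moved the other way.

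Of 7 tested enzymes and helpers that cut and trim peptide precursors, CPD rose, CPE fell and 5 did not pass (median 0.09). CPE, the carboxypeptidase of secretory granules, went from 57.98 to 54.2 FPKM and CPD from 4.75 to 5.37 FPKM. FURIN, a convertase of the secretory pathway, was at 9.16 and 10.2 FPKM (limma adjusted p = 0.0801). The neuroendocrine convertases were low, PCSK1 at 0.626 and 0.876 FPKM and PCSK2 at 0.00898 and 0.0171 FPKM.

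Of 10 tested dense-core granule genes, 3 rose and 4 fell (median -0.0088). SYT7, a calcium sensor of exocytosis, fell from 6.69 to 3.82 FPKM, CADPS, a granule priming factor, from 3.42 to 2.34 FPKM, and SCG2, the gene of secretogranin II, from 211 to 174 FPKM. VGF, a granule protein gene, rose from 72.3 to 95.1 FPKM. The limma adjusted p of the 4 lay between 0.000625 and 0.00199. Of 6 tested peptidases that degrade neuropeptides, ECE1, an endothelin-converting enzyme, rose from 16.5 to 25.1 FPKM (limma adjusted p = 0.000408) and NLN, neurolysin, fell from 15.9 to 13.9 FPKM (limma adjusted p = 0.00767). The 4 others did not pass.

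Downstream of the receptors, 4 of 18 tested Gi/o and beta-gamma subunit genes rose and 2 fell (median 0.04). GNAO1, the Go alpha subunit, rose from 10.8 ± 0.29 to 13.3 ± 0.16 FPKM (SD, n = 3 in both groups; adjusted p = 0.00187 by limma). The gamma subunit genes GNG5 and GNG3 rose by 0.30 and 0.44 on the log2 scale, while GNG11 fell by 0.50. Of 14 tested adenylyl cyclase and cyclic AMP genes, 1 rose and 2 fell (median 0.0057). ADCY1, a neural adenylyl cyclase, rose from 1.93 to 2.47 FPKM, and the protein kinase A subunit genes PRKACB and PRKAR2B fell by 0.21 and 0.26.

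Among 9 tested channel genes under Gi/o control, 2 rose and 3 fell (median -0.06). KCNJ9, a subunit of the inwardly rectifying potassium channels, fell from 1.77 to 1.15 FPKM, CACNA1C, an L-type calcium channel, from 1.32 to 0.919 FPKM and its auxiliary subunit gene CACNA2D1 from 17.6 to 14.1 FPKM.

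The list with the most passing genes, which also had the most tested, held regulators of receptor and G protein activity. Of 24 tested, 7 rose, 3 fell and 14 did not pass (median 0.02). The share passing, 41.7%, was below that of dense-core granule genes (70%), related peptides and receptors (60%) and channel genes (55.6%). RGS10, RGS16 and RGS2, which speed the shut-off of G alpha subunits, rose from 13.7 to 21.7, 8.90 to 14.1 and 9.92 to 15.3 FPKM. The rises were 0.63, 0.61 and 0.58 on the log2 scale (limma adjusted p = 0.000285, 0.000413 and 0.00152). GPSM3, a modulator of Gi alpha subunits, rose from 1.68 to 3.56 FPKM (limma adjusted p = 0.00124). GPSM3 shares exon bases with NOTCH4 on the same strand. Of 6 tested genes of receptor-linked growth arrest, only PIK3R1, a regulatory subunit of PI3 kinase, passed, and it fell from 13.2 to 10.9 FPKM (limma adjusted p = 0.00574).

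Of 30 related peptides and receptors, 21 have a row and only 5 reached the minimum level, so the counts cover a small part of the list. In it NPW, OPRD1 and MCHR1 rose and GAL and OPRL1 did not pass (median 0.22). NPW encodes neuropeptide W, whose receptors are near relatives of the somatostatin receptors, and its log2 rise of 1.59 lay between those of SST and SSTR1. OPRD1, the delta opioid receptor gene, went from 8.96 to 10.6 FPKM and MCHR1, a receptor of melanin-concentrating hormone, from 0.831 to 1.24 FPKM. UTS2R, the receptor for the somatostatin-like peptide urotensin II, was at 0.105 and 0.157 FPKM.

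Exons of 7 of the 33 genes selected from the lists, among them ECE1, GNAO1 and GNG5, overlap those of an opposite-strand gene. Whether the counting used strand is not stated, so fragments there cannot be assigned with certainty. On the same strand, GNG5, GPSM3 and SYT7 share exon bases with another gene, where strand could not tell the fragments apart.

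**Figure D5:**
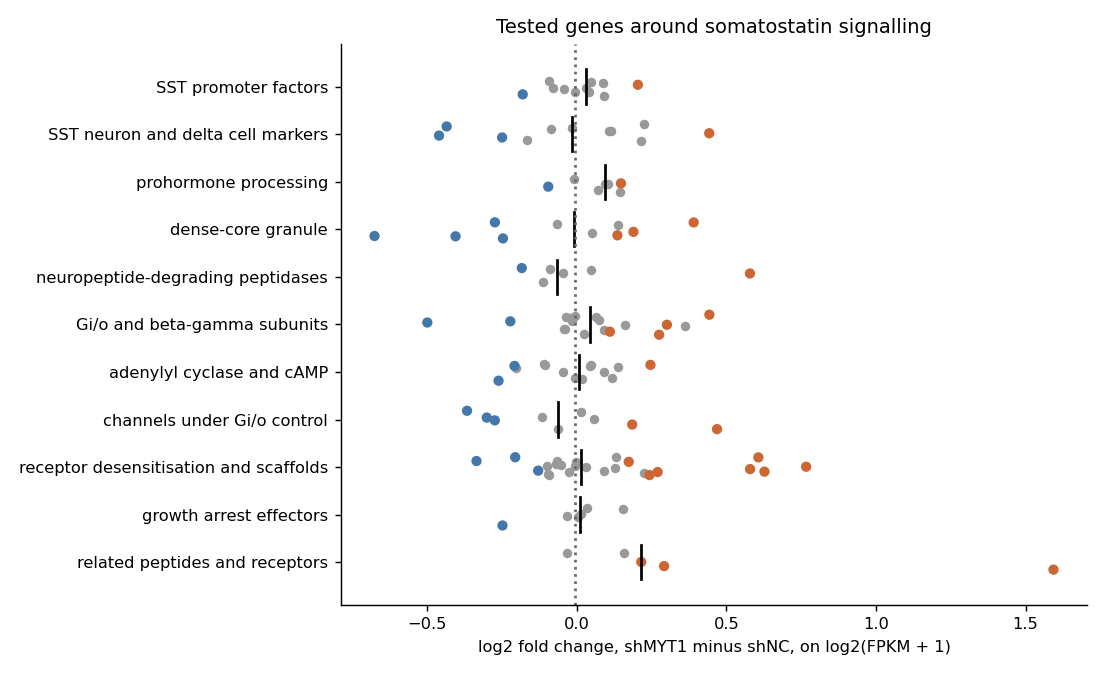
Log2 difference between shMYT1 and shNC for each tested gene (points) of the 11 lists; orange rose and blue fell at adjusted p under 0.05, grey did not pass, black bars are list medians and the dotted line is the median of all tested genes. List medians lie between -0.07 and 0.22, and 9 of the 11 lists hold both rises and falls.

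Markers of cell types that make somatostatin elsewhere were looked at beside SST. Of 9 markers of pancreatic islet and gut endocrine cells, 4 have a row and 3 were above 0 in all libraries. Their summed level was 2.93 to 3.40 FPKM in shNC and 4.51 to 5.64 FPKM in shMYT1, and CCK was at or near 0. Within that sum NKX6-1 rose from 0.333 to 1.84 FPKM (limma adjusted p = 0.000981), reaching the minimum mean of 1 FPKM only through the shMYT1 libraries. HHEX was at 2.20 and 2.74 FPKM (limma adjusted p = 0.221). INS, too low to be tested, was at 0.589 and 0.302 FPKM, on 2 to 10 fragments per library. INS shares exon bases with INS-IGF2 on the same strand. Of 8 cortical interneuron markers, 5 have a row, with a sum of 6.08 to 6.66 FPKM in shNC and 4.33 to 4.45 FPKM in shMYT1, and SLC32A1 was at or near 0. Within that sum DLX1, DLX2 and LHX6 were lower in shMYT1, while DLX5 was not (1.19 and 1.35 FPKM, limma adjusted p = 0.547). All 9 neuroblastoma markers were above 1 FPKM, with sums of 2946 to 3100 and 2546 to 2647 FPKM, mostly MYCN. The 8 fibroblast markers summed to 164 to 168 FPKM in shNC and 118 to 121 FPKM in shMYT1, but did not move as one. LUM (97.7 to 54.6 FPKM), DCN (5.47 to 3.34 FPKM) and COL1A1 (26.8 to 23.7 FPKM) fell, with limma adjusted p of 0.000184, 0.000332 and 0.0280. ACTA2 (1.77 to 2.96 FPKM), TAGLN (3.13 to 5.01 FPKM) and COL3A1 (6.51 to 7.80 FPKM) rose, with limma adjusted p of 0.00326, 0.000399 and 0.0148. Of 8 Schwann cell and glial markers, 5 have a row, with sums of 2.14 to 2.35 and 2.68 to 3.39 FPKM, and GFAP and ERBB3 were at or near 0. The part of these shifts in the values of SST and its receptors was not tested. Fragments recovered per library were 19.1 to 19.7 M in shNC and 16.4 to 18.4 M in shMYT1. Whether depth bears on the values of SST and SSTR1 was not tested.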

How the data were processed

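The values are FPKM, which the authors deposited as a single table with a column for each library. The submitters' processing notes name HISAT2 2.0.5, featureCounts 1.5.0-p3 and hg38. The annotation, filters and strand setting are not stated. Symbols, positions and exon lengths came from GENCODE 29, which held 32301 of the 32434 gene IDs. Multiplying FPKM by exon length gave whole fragments in all libraries (tolerance 0.01) for 95.4% of these, and fragment numbers in the text are those. Median ratios to the geometric mean over 22101 genes above 0 everywhere agreed to within 7e-08%, so a median-of-ratios scaling is already in the values. They were used as deposited.

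The test was limma 3.58.1 under R 4.3.3, two-sided with a variance trend, on log2 of FPKM plus 1. It covered 14106 genes averaging 1 FPKM or more, and p was adjusted over them by Benjamini-Hochberg. This scale understates differences of low genes. A level of 3 fragments was taken as the floor, which covers counting error only. The fit was also run on simulated data with far fewer changed genes than were called here, and no error rate is taken from it. Replicates differed by more than counting noise (chi-square per gene 1.91 to 3.30 between pairs), and none were merged.

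The members and gene lists were chosen with earlier results of these data known. Named were the members, MYT1, up to 4 passing genes per list with the largest absolute difference, the 5 nearest patterns, and the 3 nearest tested genes on each side. CREB1, PAX6, DLX6, FURIN, PCSK1, PCSK2, UTS2R, CENPS-CORT and the marker genes were named outside this rule, after their values were seen. A gene that the rule selects is not reported here. Alternatives varied the pseudocount, minimum level, scaling, variance model and unit (voom on recovered fragments), added a replicate block, and left out each library.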

Additional observations from a re-analysis of the deposited data

How the results depend on the processing

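The log2 difference of SST, 1.35, was 1.46 with a pseudocount of 0.1 FPKM and 1.47 with voom on recovered fragments. That of SSTR1, 1.79, was 2.99 and 2.27 with pseudocounts of 0.1 and 0.5 FPKM, 1.90 with quantile normalization and 3.27 with voom. The pseudocount settings change how much the added constant weighs on low values. Leaving out 1 library gave 1.30 to 1.42 for SST and 1.75 to 1.84 for SSTR1, and MYT1 stayed past the threshold in every setting that gave it a value, with differences of -0.30 to -0.23 when 1 library was left out. Past the threshold were 3420 genes, and 2038 to 3048 with 1 library left out, and of the pathway lists 45, and 28 to 42. Each of these fits has fewer samples. Small differences of genome neighbours changed sign without any call: with 1 library left out, BCL6 ranged from -0.10 to 0.014, LPP from -0.024 to 0.059, MBIP from -0.16 to 0.012 and P3H2 from -0.065 to 0.063, and LPP was -0.0014 on rescaling to the same FPKM total. In each case the cause was not tested. A minimum of 5 FPKM left out SSTR1 and MYT1, and MYT1 has no recovered fragments, so those settings gave no value for them.

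With the replicate block, 3381 genes and 44 genes of the pathway lists passed. The numbers share little beyond the label: deviations of same-numbered libraries correlated at 0.03, 0.01 and 0.04 across genes, though each library correlated best with its own number. Depth limits CORT, SSTR3 and SSTR5, which had at most 13 fragments in any library.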
